A study of Mus musculus with 2 samples.

Results

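Genes that carry glucose from the cell surface to pyruvate, lactate and acetyl-CoA were examined in RNA of an erythroid cell line. On each of 2 arrays, 2 RNA samples were hybridised together. The 38 genes were taken by name from the array's annotation: glucose transporters, hexokinases, the enzymes of each glycolytic step, the enzymes that set fructose 2,6-bisphosphate, lactate dehydrogenase, pyruvate dehydrogenase with its kinases, and the hypoxia genes Hif1a and Ankrd37. They were 38 of the 27745 gene names on the array. All 38 had a probe, and 37 had at least 1 probe well above background in the same channel on both arrays. The exception was the neuronal enolase Eno2, whose probes were not well above background.

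Glycolysis splits glucose into pyruvate and yields ATP without oxygen. Each step is served by isozymes from separate genes, and tissues differ in which ones they use. Mature red cells have no mitochondria and live on glycolysis. Their pyruvate kinase comes from Pklr, their main hexokinase from Hk1, and their bisphosphoglycerate mutase, Bpgm, makes the metabolite that lowers the oxygen affinity of haemoglobin. Pkm2, by contrast, is the name in the array file for the gene of the muscle-type pyruvate kinases (Pkm in RefSeq). A form of these kinases is used in dividing cells.

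The cells were G1E-ER-GATA-1, a mouse line that lacks its own GATA-1 and carries GATA-1 fused to the hormone-binding part of the oestrogen receptor, so that β-estradiol switches it on. All cells, controls included, were kept in β-estradiol for 24 h after transfection. On each array the ETO2 siRNA sample (siRNA against the corepressor gene Cbfa2t3) was read in green (Cy3) and the control siRNA sample in red (Cy5), and the dyes were not swapped. A log2 ratio is always ETO2 siRNA over control siRNA, and each mean ± SD is over the 2 arrays. The labels do not say that the arrays came from separate cultures, so the spread may be technical. In RNA from a whole culture fewer cells of a type and less RNA per cell cannot be told apart.

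The siRNA target was lower on both arrays, at log2 ratios of -0.39 and -0.46 for Cbfa2t3 (NM_009824), with a mean of -0.42 ± 0.05 or 74.6% of control (limma adjusted p = 8.46e-05). Its other kept probe, on the same transcript, fell less, by 0.23 ± 0.0046 on the log2 scale, to 85.6% of control (adjusted p = 0.0105). The labels call the cells murine ES cells in one field and erythroid in another. All 12 erythroid markers on the array were well above background, whereas of 7 embryonic stem cell markers only Esrrb and Tdgf1 were, and Pou5f1, Nanog and Sox2 were not. Summed spot signals, background included, cover only the markers well above background. They were 176 to 269 scanner units for Esrrb and Tdgf1 together and 277000 to 296000 for the 12 erythroid markers. All 12 erythroid markers were called higher after ETO2 siRNA, against 18.4% of all genes, but 3 of them were saturated. Eraf was saturated in the control channel, which raises the ratio. Hba-a1 and Hbb-b1 were saturated in both channels, so their ratios carry no fold. Of the other 9, 2 lay below the median of all genes when arrays were centred on their median. Granulocyte, macrophage, lymphocyte and fibroblast markers were dim in all 4 channels. The sums were 349 to 483 units for 4 granulocyte and macrophage genes and 493 to 908 for 4 lymphocyte genes. Col1a2, the only fibroblast gene well above background, read 78.2 to 113 units. Megakaryocyte markers summed to 5570 and 5890 units with ETO2 siRNA and to 7250 and 9150 in controls, where red spots were brighter in general. By normalized ratio these markers were mixed: Gp9 was called higher at 1.19 ± 0.12, Gp1ba lower at -0.36 ± 0.13, and Itga2b did not pass at 0.15 ± 0.11. The part of these cell types in the results was not tested.

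Spot signals set 2 limits on the ratios. The median spot was dimmer in green (82.8 and 77.5 scanner units) than in red (105 on each array), over backgrounds of 44 to 47, and for all 37 measured genes the red spot of the brightest kept probe was the brighter on both arrays. The ratios below were therefore taken after loess, which sets the typical ratio at each brightness to 0, and a positive ratio means that green fell short of red by less than at other spots of like brightness. The scanner saturates near 65200 units, and 471 and 495 red spots reached that limit against 39 and 11 green ones. A saturated red spot reads too low and its ratio too high. Among all 394 tested genes with a saturated probe, 67.3% were called higher.

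**Figure D1:**
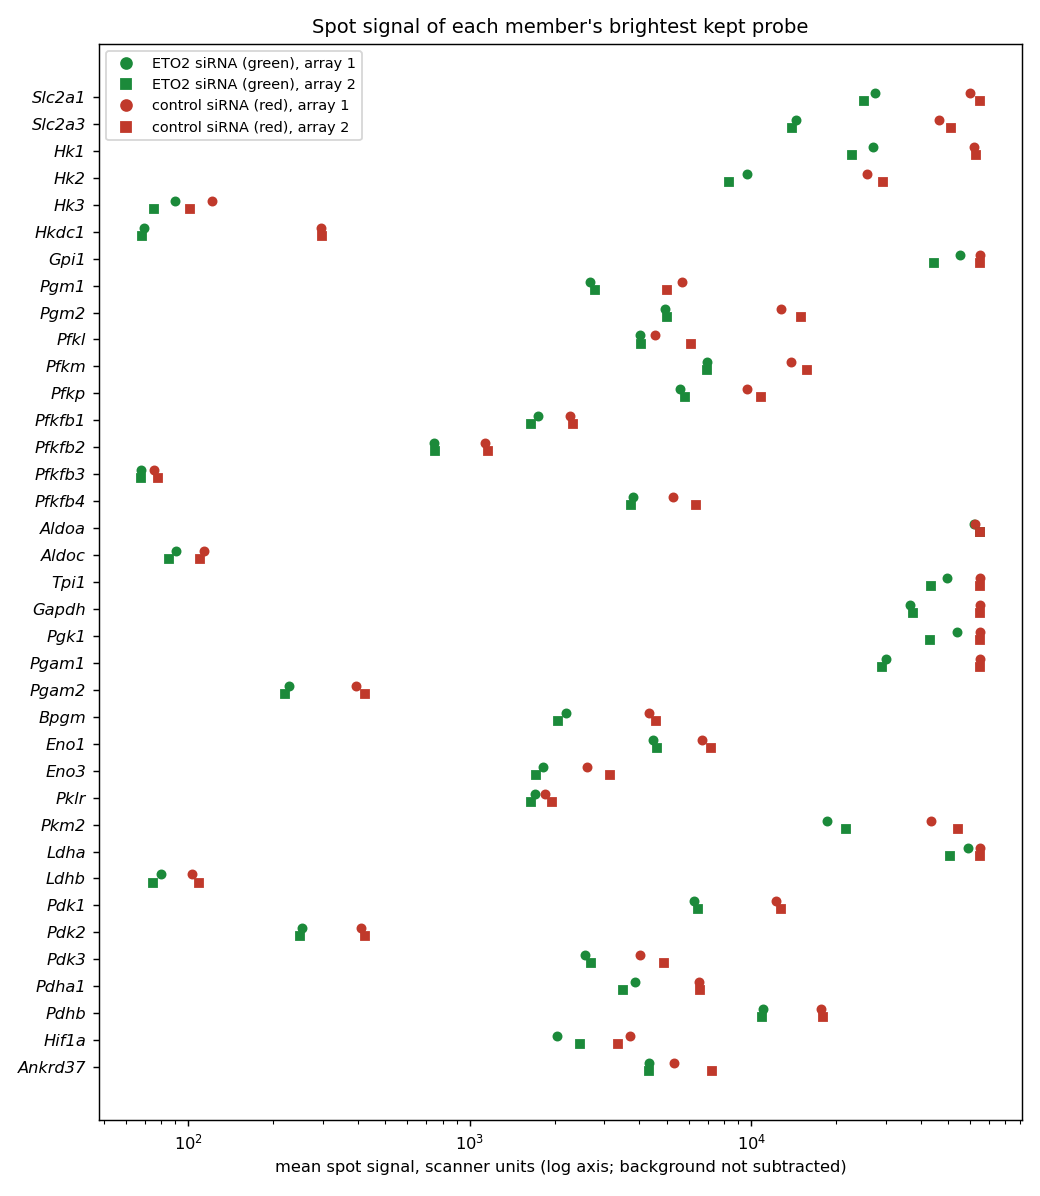
Mean spot signal in scanner units (log axis, background not subtracted) of the brightest kept probe of 37 glycolysis genes, green for ETO2 siRNA and red for control siRNA, circles for array 1 and squares for array 2. Red lies above green for every gene, and the red spots of Gapdh, Gpi1, Ldha, Pgk1, Tpi1, Pgam1 and Aldoa sit at the scanner's limit on both arrays.

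The sequences that bear on the results are of 2 kinds, promoters of some of the genes whose ratios stood out and probe sequences of genes whose probes disagreed. Promoter windows are the 250 bases before a transcription start (RefSeq, GRCm38.p6), printed 5′ to 3′ on the gene's strand. Of the 38 genes, 37 matched the RefSeq promoter table, and Slc2a3 did not. Capitals mark the letters AGATAA or TGATAA, which hold the core bound by GATA factors, and ACGTG, the core of the hypoxia response element, each searched on both strands. The windows shown are those of the pyruvate kinase gene Pklr at its upstream start (chr3:89135892-89136141, plus strand), of the kinase and phosphatase gene Pfkfb1 at a pair of starts (chrX:150589666-150589915 and chrX:150594178-150594427, plus strand), and of the hexokinase genes Hk2 (chr6:82774455-82774704, minus strand) and Hkdc1 (chr10:62422458-62422707, minus strand).
Pklr: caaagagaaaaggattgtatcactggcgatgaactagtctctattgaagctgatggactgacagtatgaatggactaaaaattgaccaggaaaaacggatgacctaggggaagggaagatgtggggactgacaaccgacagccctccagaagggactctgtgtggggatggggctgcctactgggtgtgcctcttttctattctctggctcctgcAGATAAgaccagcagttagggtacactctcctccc
Pfkfb1 first: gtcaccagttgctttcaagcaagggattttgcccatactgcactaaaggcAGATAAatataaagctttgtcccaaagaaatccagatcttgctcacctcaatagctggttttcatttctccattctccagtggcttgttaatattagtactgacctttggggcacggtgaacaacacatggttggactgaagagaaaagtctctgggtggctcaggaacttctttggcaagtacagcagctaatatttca
Pfkfb1 second: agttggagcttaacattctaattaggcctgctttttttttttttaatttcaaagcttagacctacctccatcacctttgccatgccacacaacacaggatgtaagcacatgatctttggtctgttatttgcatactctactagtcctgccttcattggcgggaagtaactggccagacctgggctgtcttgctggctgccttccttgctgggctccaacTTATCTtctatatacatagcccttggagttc
Hk2: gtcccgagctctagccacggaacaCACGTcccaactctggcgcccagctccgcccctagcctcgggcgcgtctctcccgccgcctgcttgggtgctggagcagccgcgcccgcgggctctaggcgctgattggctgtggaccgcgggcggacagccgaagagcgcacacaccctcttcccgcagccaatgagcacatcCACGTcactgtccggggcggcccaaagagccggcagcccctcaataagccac
Hkdc1: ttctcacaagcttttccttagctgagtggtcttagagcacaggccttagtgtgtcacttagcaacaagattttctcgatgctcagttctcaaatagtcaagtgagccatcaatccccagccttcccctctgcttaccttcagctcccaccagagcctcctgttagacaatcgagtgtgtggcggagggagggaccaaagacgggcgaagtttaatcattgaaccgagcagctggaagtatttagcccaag

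In Pklr, AGATAA lay 35 to 30 bases before the start. In Pfkfb1, AGATAA lay 200 to 195 bases before the first of the starts shown, and its reverse complement TTATCT lay 31 to 26 bases before the second. The Pfkfb1 starts shown are those whose windows hold the marked letters, and its other windows hold none. Neither the downstream window of Pklr nor the window of Pfkl, a gene with a ratio of 0.51, holds any. Hk2 held CACGT, which is the hypoxia core read on the other strand, at 226 to 222 and at 52 to 48 bases before its start, and Hkdc1 held none of these letters in its window. The GATA letters stood in 10 of 57 promoter windows of the genes studied (17.5%), against 16.6% of 32851 mouse promoter windows of the same length. They belonged to 7 genes. Pklr, Pfkfb1, Pfkfb2 and Pfkfb4 were called higher, and Aldoa was saturated. Pfkm did not pass, at -0.14, and Pkm2 was called lower by its brightest probe, at -0.27. Whether the letters bear on the ratios was not tested. ACGTG stood in 22 of 57 (38.6%), against 16.6% of all. These 22 windows belonged to 18 genes, among them Ldha, Pgk1, Pgm1, Pgm2, Slc2a1 and Ankrd37. The E-box CACGTG, which contains the hypoxia core on both strands, stood in 6 of 57 windows (10.5%), against 6.02% of all. The letters are a description of the windows, and several windows can belong to 1 gene.

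Of the 37 genes tested, 14 were called higher and 9 lower after ETO2 siRNA by limma at an adjusted p under 0.05. Over all 16640 genes tested, 40.7% were called, 18.4% higher and 22.3% lower, so calls were common on these arrays. Saturation divides the 37 genes. In 29 the brightest probe was unsaturated, and 8 of these rose, 8 fell and 13 did not pass, which is 55.2% called against 39.8% of the 16246 unsaturated genes. The median log2 ratio of the 29 was 0.060, against -0.022 for all unsaturated genes. The sign was the same on both arrays for 34 of the 37. Changes of at least 1.5-fold past the threshold were found in 4 of the 29 (Hkdc1, Slc2a3, Hk2 and Pklr), and in 3.47% of all genes tested (2.74% with saturated probes left out). Leaving saturated probes out left 30 of the genes studied, with 7 higher and 8 lower, against 17.1% and 22.4% of all genes. When arrays were centred on their median instead of by loess, the calls over all genes turned to 466 higher and 10830 lower, 4.13% of calls higher in place of 45.2%, and the median of all genes moved from -0.018 to -0.31.

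**Figure D2:**
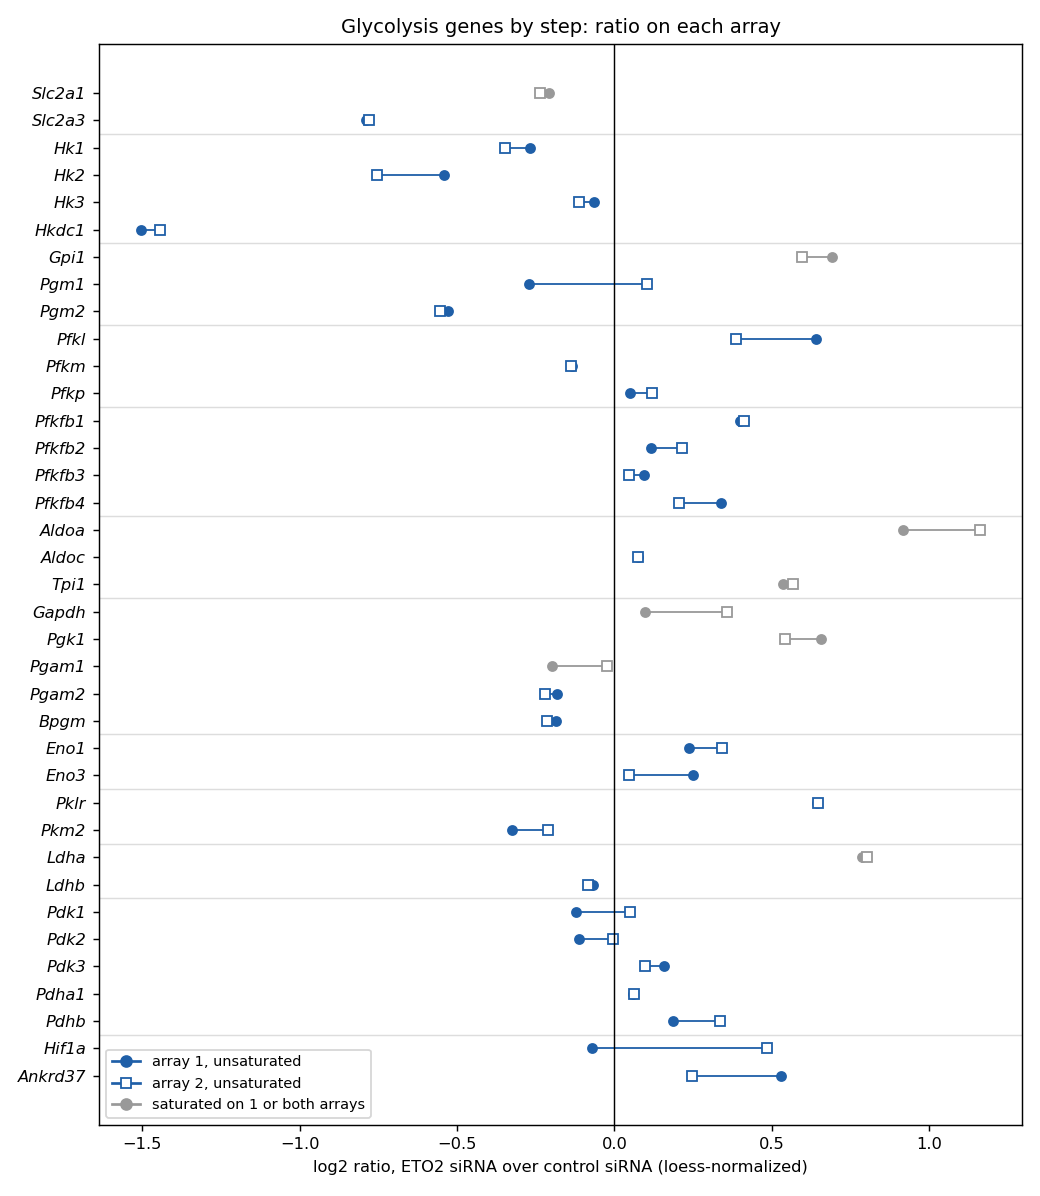
Loess-normalized log2 ratio (ETO2 siRNA over control siRNA, horizontal axis) of 37 genes on array 1 (filled circles) and array 2 (open squares), ordered by step of glucose metabolism, blue where the probe was unsaturated and grey where a channel was saturated on 1 or both arrays. The genes of uptake and of the hexokinase step lie below 0, Hkdc1 farthest at -1.51 and -1.44, the 4 Pfkfb genes lie above 0, and Pklr lies at 0.65 on both arrays. With median centring the ratios of Pfkfb1, Pfkfb2 and Pfkfb4 are below 0.

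At the entry of glucose, the neuronal-type transporter Slc2a3 (GLUT3; chr6:122727809-122802363) fell. Its spot read 14410 and 13930 units with ETO2 siRNA and 46400 and 51300 in controls. The log2 ratios were -0.79 and -0.78, a mean of -0.78 ± 0.0079 or a 1.72-fold fall (adjusted p = 1.84e-07). The arrays were closer to each other than this change by a wide margin. A dim second probe, designed on the transcript AK147258, had a ratio of -0.12 ± 0.13 that did not pass (adjusted p = 0.162). The widely used transporter Slc2a1 (GLUT1) read 27430 and 25250 units with ETO2 siRNA against 59740 and 65220 in controls. Its control spot was saturated on array 2, and its ratio of -0.22 ± 0.02 (adjusted p = 0.00999) was -0.0091 on the scanner's processed signals (adjusted p = 0.946).

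Of the 4 hexokinases, which trap glucose in the cell as glucose 6-phosphate, 3 fell and none rose by their brightest probes. Over all genes, 22.3% were called lower and 18.4% higher. Other probes of Hk1, counted here as a fall, did not all go that way, as given below. Hk2, the hexokinase induced by insulin and hypoxia, read 9695 and 8354 units with ETO2 siRNA against 25880 and 29450 in controls. Its log2 ratios were -0.54 and -0.75, a mean of -0.65 ± 0.15 or a 1.57-fold fall (adjusted p = 3.25e-06). Hkdc1, a hexokinase-related gene next to Hk1 on chromosome 10 (chr10:62383137-62423711, with Hk1 at chr10:62268855-62379920), read 69.7 and 68.3 units with ETO2 siRNA and 296 and 298 in controls. Green lay close to the array's background of 46 and 44 units, and red lay well above it on both arrays. The log2 ratios were -1.51 and -1.44, a mean of -1.47 ± 0.04 or a 2.78-fold fall (adjusted p = 4.46e-10). The size of this fall depends on how background is handled: the log2 ratio was -2.50 without the offset of 50 and -3.18 on the scanner's processed signals. Hk3, a hexokinase of white blood cells, was dim and had a ratio of -0.087 ± 0.034 (adjusted p = 0.289).

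Hk1, the red cell hexokinase, gave no single answer, because its 5 kept probes went in both directions. Each probe is a 60-base oligonucleotide, of which the first 30 bases are printed here to identify it, in lower case throughout. The transcript each probe was designed on is the one the array file names.
Hk1 probe 1 (BC072628): ggaaaacatcttgtctccatcttgctagga
Hk1 probe 2 (NM_010438): atcatgcaccaaacagtgaaggaactgtca
Hk1 probe 3 (NM_010438): gcatggccgccgtggtgcaaaagatccgag
Hk1 probe 4 (NM_010438): gacatcagaacagacttcgacaagtggtgg
Hk1 probe 5 (NM_010438): gaaattctgatagatatcctgacacgcttc

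Probe 1, the brightest, read 27090 and 22740 units with ETO2 siRNA and 61630 and 63130 in controls, just under the scanner's limit. Its log2 ratios were -0.27 and -0.35, a mean of -0.31 ± 0.05 (adjusted p = 0.00118), and 3.92% of its red pixels on array 2 were saturated. Tested with every kept probe as a row of its own, where 39.4% of 24430 probes were called, 18.8% higher and 20.7% lower, probe 2 had a ratio of 0.26 ± 0.05 (adjusted p = 0.00489) and probe 4 had 0.30 ± 0.14 (adjusted p = 0.00281). Probe 3 had 0.11 ± 0.06 (adjusted p = 0.182), and probe 5, the dimmest, -0.20 ± 0.16 (adjusted p = 0.0285). Hk1 was thus called lower by 2 of its probes and higher by 2, and the mean over all 5 was 0.031. Counting Hk1 among the falls above follows from taking the brightest probe.

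Differences between hexokinases were taken on each array from their brightest probes. Hk2 lay 0.56 ± 0.12 below Hk3 on the log2 scale, and 0.37 below it on the processed signals. Hkdc1 lay 0.83 ± 0.19 below Hk2, but 2.52 below it on the processed signals and 0.41 with median centring, so the size of this difference is not settled. Hk1 lay 0.34 ± 0.10 above Hk2 and 0.22 ± 0.02 below Hk3. The latter turned to 0.073 ± 0.21 above Hk3 on the processed signals. The other kept Hk1 probes had ratios from -0.20 to 0.30, on both sides of the -0.087 of Hk3. The order of Hk1 and Hk3 is therefore not settled. Differences were taken for 23 pairs of isozymes, subunits or related enzymes at the same step. They were not fitted across all genes, and an exact sign permutation over 2 arrays cannot go below a two-sided p of 0.5, so they are given without a test. Of the 23 pairs, 19 differed in the same direction on both arrays. Among them 10 differed by at least 0.3, and all 10 kept that direction on the processed signals and 9 with median centring. These readings use the same spots by which the pairs were picked, and some genes are in several pairs. They are therefore no separate evidence for the differences.

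Glucose 6-phosphate is also the meeting point with glycogen through phosphoglucomutase. The gene named Pgm2 in the array file (NM_028132) is Pgm1 in RefSeq GRCm38.p6 (chr4:99929451-99987294), the main phosphoglucomutase, and the gene named Pgm1 there (NM_025700) is Pgm2 in RefSeq (chr5:64092919-64128355). The main phosphoglucomutase fell. Its spot read 4925 and 5035 units with ETO2 siRNA and 12760 and 15010 in controls, with log2 ratios of -0.53 and -0.55 and a mean of -0.54 ± 0.02 or a 1.46-fold fall (adjusted p = 8.02e-06). The other gene read 2677 and 2785 units against 5658 and 5029, and its ratios of -0.27 and 0.10 had opposite signs (mean -0.083 ± 0.27, adjusted p = 0.433). The isomerase Gpi1, which turns glucose 6-phosphate into fructose 6-phosphate, was saturated in the control channel at 65210 units on both arrays and is given no fold. Its dim second probe had a ratio of -0.075 ± 0.031 (adjusted p = 0.375).

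Phosphofructokinase, the committed step, is built from 3 subunits, and the liver-type subunit Pfkl was the member of the family that rose. It read 4038 and 4043 units with ETO2 siRNA and 4546 and 6095 in controls. The log2 ratios of 0.64 and 0.39 gave a mean of 0.51 ± 0.18 or a 1.43-fold rise (adjusted p = 4.14e-05), with the arrays further apart than for most genes. On the processed signals the ratio was 0.31 and did not pass (adjusted p = 0.0826). The muscle-type subunit Pfkm had a ratio of -0.14 ± 0.0016 (adjusted p = 0.0907) and the platelet-type subunit Pfkp of 0.084 ± 0.050 (adjusted p = 0.309). Pfkl lay 0.65 ± 0.18 above Pfkm and 0.43 ± 0.23 above Pfkp. Pfkl minus Pfkm was 0.78 on array 1 and 0.53 on array 2.

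The bifunctional Pfkfb enzymes make and break fructose 2,6-bisphosphate, the strongest activator of phosphofructokinase. Of the 4 genes, 3 were called higher, against 18.4% of all genes, and none lower. All 4 ratios were above 0 on both arrays. With median centring, however, those of Pfkfb1, Pfkfb2 and Pfkfb4 fell to -0.056, -0.24 and -0.24. Relative to the shifted median of all genes under that centring they were 0.25, 0.069 and 0.065. Pfkfb1, the liver and muscle isozyme (chrX:150587445-150643878), read 1749 and 1656 units with ETO2 siRNA and 2268 and 2336 in controls. Its log2 ratios were 0.40 and 0.41, a mean of 0.40 ± 0.0089 or a 1.32-fold rise (adjusted p = 1.16e-04). Pfkfb4, an isozyme first known from testis and induced by hypoxia, read 3795 and 3737 units against 5279 and 6376, with ratios of 0.34 and 0.21 (mean 0.27 ± 0.09, adjusted p = 0.00337). Both also passed on the processed signals, at 0.50 and 0.40. Pfkfb2, the heart isozyme, passed narrowly by its brightest probe at 0.17 ± 0.07 (adjusted p = 0.0487). None of its 4 kept probes passed when every probe was tested, and their ratios ran from -0.13 to 0.17. The hypoxia-induced Pfkfb3 was dim, at 0.071 ± 0.033 (adjusted p = 0.394), but passed on the processed signals at 0.43 (adjusted p = 0.0316).

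The middle of the pathway, from aldolase to phosphoglycerate mutase, was largely out of the scanner's range. Aldoa, the aldolase of muscle and red cells, was saturated in both channels on both arrays, with green at 61820 and 65100 units and red at 62570 and 65220. Its ratio of 1.04 carries no fold. In Tpi1 (triose phosphate isomerase), Gapdh and Pgk1 (the ATP-making phosphoglycerate kinase) the control spots read 64980 to 65220 units on both arrays. Their normalized ratios of 0.55, 0.23 and 0.60 all passed the threshold, and none is a fold, since the control level is known only as a lower limit. The mutase Pgam1 was also saturated in controls, and its ratio was the only one of these below 0, at -0.11 ± 0.12 (adjusted p = 0.200), which did not pass and is given no fold. The brain-type aldolase Aldoc, unsaturated and dim, had a ratio of 0.076 ± 0.0010 (adjusted p = 0.359).

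Pgam2 and Bpgm, the unsaturated mutases, were called slightly lower by their brightest probes. Neither passed on the processed signals, where each was at -0.20. The muscle-type Pgam2 read 228 and 221 units against 395 and 424, with a ratio of -0.20 ± 0.03 (adjusted p = 0.0171). Bpgm, the red cell enzyme of bisphosphoglycerate synthesis, read 2198 and 2063 units against 4348 and 4589 by its brighter probe, with ratios of -0.19 and -0.21 (mean -0.20 ± 0.02, adjusted p = 0.0175). Its other probe went the other way, at 0.15 ± 0.03 (adjusted p = 0.0764), and the mean over both was -0.026. The first 30 bases of the 2 probes, both designed on NM_007563, identify them.
Bpgm probe 1: tgctattccagtgagcaggtcaccgtttta
Bpgm probe 2: acgggaatagcagtagagctctcctgaaac

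Enolase and pyruvate kinase form the end of the pathway. The general enolase Eno1 rose, at 4463 and 4612 units with ETO2 siRNA and 6701 and 7216 in controls, with log2 ratios of 0.24 and 0.34 (mean 0.29 ± 0.07, adjusted p = 0.00193). On the processed signals its ratio was of like size, 0.31, and did not pass (adjusted p = 0.0615). The muscle enolase Eno3 had ratios of 0.25 and 0.048 (adjusted p = 0.0914). Eno1 minus Eno3 was -0.011 on array 1 and 0.30 on array 2, so these isozymes did not differ beyond their spread.

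By their brightest probes the pyruvate kinase genes were called in opposite directions. Pklr (chr3:89136122-89146815), whose upstream promoter serves red cells and downstream promoter serves liver, read 1708 and 1650 units with ETO2 siRNA and 1854 and 1958 in controls. Its log2 ratio was 0.65 on both arrays, a mean of 0.65 ± 0.0011 or a 1.57-fold rise (adjusted p = 1.39e-06). Among the unsaturated genes studied this was the highest ratio, and it stayed above 0 under each processing alternative tried, at 0.75 on the processed signals and 0.19 with median centring. Pkm2 read 18580 and 21660 units against 43410 and 54410 by its brightest probe, with ratios of -0.32 and -0.21 (mean -0.27 ± 0.08, adjusted p = 0.00363). A dim probe gave -0.28 ± 0.15 (adjusted p = 0.00392), while the third, on NM_011099, gave 0.16 ± 0.06 (adjusted p = 0.0561). The mean over the 3 probes was -0.13 and did not pass (adjusted p = 0.0832). Nor did the brightest probe pass on the processed signals, at -0.20. Pklr lay 0.97 above Pkm2 on array 1 and 0.86 on array 2, a difference of 0.91 ± 0.08 or 1.88-fold in the balance between them, and it also lay above each of the other Pkm2 probes.

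**Figure D3:**
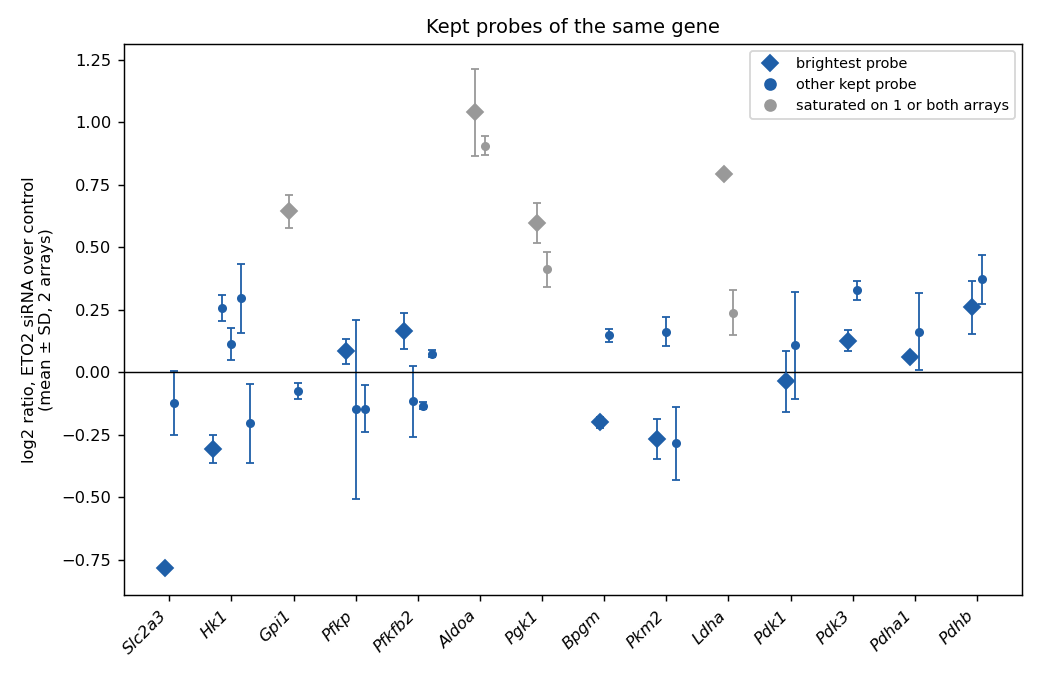
Log2 ratio (ETO2 siRNA over control siRNA, mean ± SD of 2 arrays, vertical axis) of every kept probe of the 14 genes with more than 1, with diamonds for the brightest probe, circles for the others, and grey where a channel was saturated on 1 or both arrays. Probes of 7 genes lie on both sides of 0, and those of Hk1 spread from -0.31 to 0.30.

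Disagreement between probes was not limited to Hk1. Of 14 genes with more than 1 kept probe, 7 had ratios of both signs, and Hk1 was the only one with probes called in both directions. The probes agreed in sign for Slc2a3, Pdhb, Pdk3 and Pdha1 among the unsaturated genes.

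Pyruvate dehydrogenase feeds pyruvate to the mitochondrion. Its beta subunit Pdhb rose by both of its probes, though on the processed signals the brighter one was at 0.16 and did not pass (adjusted p = 0.248). The brighter read 11050 and 10910 units against 17750 and 17970, with ratios of 0.19 and 0.33 (mean 0.26 ± 0.11, adjusted p = 0.00495), and the other gave 0.37 ± 0.10 (adjusted p = 3.76e-04), but with median centring the value relative to all genes was -0.014 for the brighter probe. The alpha subunit Pdha1 had a ratio of 0.060 ± 0.0022 (adjusted p = 0.480). The kinases that switch pyruvate dehydrogenase off did not pass: Pdk1 had a ratio of -0.036 ± 0.12 (adjusted p = 0.701), Pdk2 of -0.058 ± 0.075 (adjusted p = 0.502) and Pdk3 of 0.13 ± 0.04 (adjusted p = 0.120). A second Pdk3 probe passed at 0.33 ± 0.04 (adjusted p = 7.91e-04). Ldha, the lactate dehydrogenase subunit of glycolytic cells, was saturated in controls at 65220 units by both of its probes, whose normalized ratios were 0.79 and 0.24 and are no folds. The heart-type subunit Ldhb was dim, at -0.076 ± 0.013 (adjusted p = 0.357).

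Hif1a encodes the oxygen-regulated factor that drives many glycolytic genes in hypoxia, and its arrays disagreed. It read 2037 and 2466 units with ETO2 siRNA and 3701 and 3369 in controls, with ratios of -0.071 and 0.48 (mean 0.21 ± 0.39, adjusted p = 0.0960). Ankrd37, an ankyrin repeat gene induced by this factor, read 4338 and 4331 units against 5301 and 7243. Its ratios of 0.53 and 0.25 passed (mean 0.39 ± 0.20, adjusted p = 5.65e-04), but on the processed signals the ratio was 0.19 and did not pass (adjusted p = 0.232).

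The scanner software's own processed signals served as a stricter reading, since 15.2% of all genes passed there, 7.31% higher and 7.88% lower. Of the 8 unsaturated genes that rose, 3 passed on them as well: Pklr, Pfkfb1 and Pfkfb4. Of the 8 that fell, 4 passed: Slc2a3, Hk2, Hkdc1 and Pgm2. The adjusted p-values of these 7 genes on the processed signals ran from 3.76e-04 for Hkdc1 to 0.0391 for Pfkfb4. The ratios of the other genes stayed on the same side of 0, with Pfkfb2 nearest at 0.0068.

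**Figure D4:**
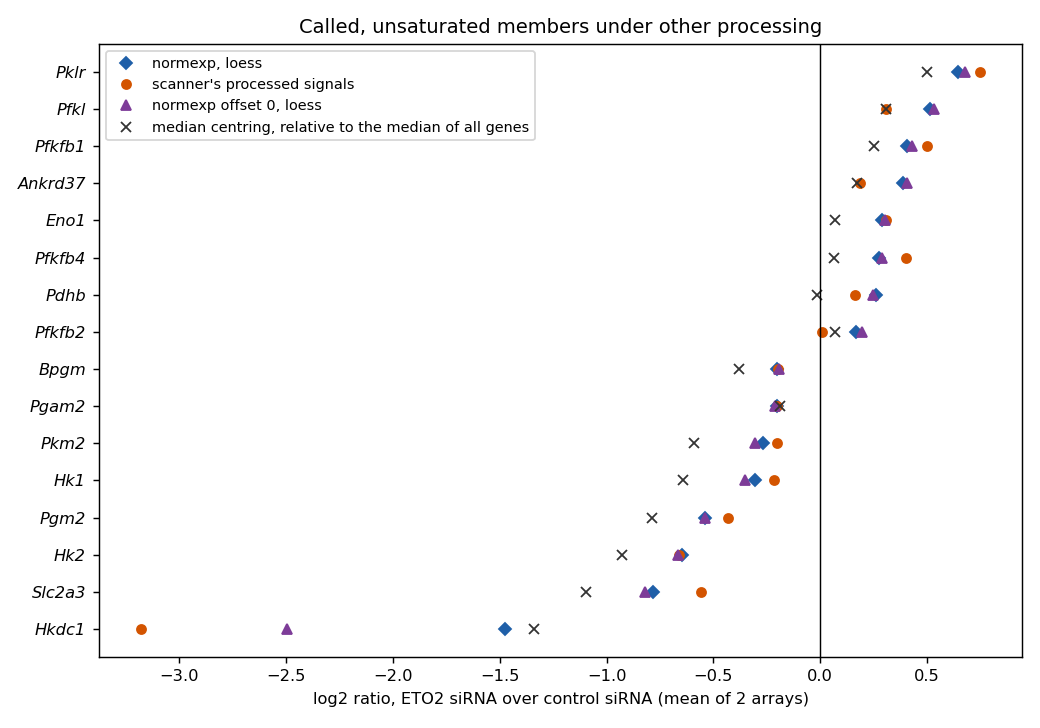
Mean log2 ratio over 2 arrays (ETO2 siRNA over control siRNA, horizontal axis) of the 16 unsaturated genes past the threshold, by normexp and loess (blue diamonds), on the scanner's processed signals (orange circles), with normexp offset 0 (purple triangles) and with median centring relative to the median of all genes (crosses). Hkdc1 runs from -1.34 to -3.18, and Pdhb, at -0.014 under median centring, is the gene that changes side.

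Genes around glycolysis, on 6 lists of 135 names, were read beside it. Of 99 tested, 17 were called higher and 25 lower, close to the shares of all genes (18.4% and 22.3%). Their median log2 ratio was -0.021. The counts of the single lists are to be read against the same shares, and no list was tested as a set. Among 11 genes of the pentose phosphate pathway, which draws on glucose 6-phosphate for NADPH and ribose, 2 were called higher and 4 lower. Pgd (6-phosphogluconate dehydrogenase) read 3944 and 3552 units against 10890 and 11280 and fell by 0.65 ± 0.03 on the log2 scale (adjusted p = 1.36e-06), as did Rpia (ribose 5-phosphate isomerase) by 0.34 ± 0.08. On the processed signals Pgd was -0.37 and passed, and Rpia was -0.12 and did not (adjusted p = 0.343). The lactonase Pgls rose by 0.34 ± 0.06 (-0.20 with median centring, 0.11 above the median of all genes there), and the transketolase Tkt was saturated in controls.

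Of 22 genes of glycogen and sugar nucleotides, 3 were called higher and 4 lower, against 18.4% and 22.3% of all genes. The N-acetylglucosamine kinase Nagk fell by 0.54 ± 0.01 (adjusted p = 8.51e-06) and the branching enzyme Gbe1 by 0.27 ± 0.0047, while the glycogen synthase Gys1 had a ratio of 0.31 ± 0.11 (adjusted p = 0.00142; -0.025 with median centring, 0.28 relative to all genes there). Of 18 genes of pyruvate and lactate handling, 5 were called higher and 6 lower. Got2, the mitochondrial aspartate aminotransferase, rose by 0.44 ± 0.12 (-0.11 with median centring, 0.20 relative to all genes there) and the malic enzyme Me2 fell by 0.39 ± 0.02. The alanine aminotransferase Gpt2 was called lower but was dim, at 56.8 and 57.0 units against 100.3 and 84.1, and is given no fold, and the malate dehydrogenase Mdh2 was saturated in controls. Of 11 other isozymes of the glycolytic steps and transporters, the transporter Slc2a8 was the only one called, at -0.20 ± 2.93e-04 (adjusted p = 0.0192).

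Of 19 genes of the hypoxia response other than Hif1a and Ankrd37, 2 were called higher and 7 lower. Over all genes the shares were 18.4% and 22.3%. Bnip3, a mitophagy receptor induced in hypoxia, read 21470 and 20340 units against 55990 and 60670 and fell by 0.46 ± 0.01 (adjusted p = 3.41e-05). Ddit4, an inhibitor of mTOR signalling, fell by 0.40 ± 0.14 (adjusted p = 2.57e-04), and Higd1a rose by 0.29 ± 0.06 (-0.36 with median centring, -0.051 relative to all genes there). The inhibitor of the hypoxia factor, Hif1an, had a ratio of -0.24 ± 0.03 (adjusted p = 0.00714) that was 0.020 on the processed signals. Of 18 regulators of glycolytic genes, 5 were called higher and 3 lower. Txnip, a glucose-induced inhibitor of glucose uptake, fell by 0.42 ± 0.24 (adjusted p = 4.52e-04). The kinase Stk11 rose by 0.49 ± 0.05 (-0.062 with median centring, 0.25 relative to all genes there), and the insulin-signalling kinases Akt1 and Akt2 were called in opposite directions, at -0.32 ± 0.09 and 0.31 ± 0.04, the latter -0.13 with median centring and 0.18 relative to all genes there. Of the neighbouring genes named, Rpia, Pgls, Got2, Me2, Gbe1, Slc2a8, Hif1an, Stk11, Akt1 and Akt2 did not pass on the processed signals.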

How the data were processed

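RNA of G1E-ER-GATA-1 cells was compared on 2 two-colour arrays, with 1.2 µg of total RNA labelled per dye, per the labels. Spots were read with Agilent Feature Extraction 9.1.3.1. The deposited mean signal and local background of each spot are intensity on a linear scale before any normalization, per the file headers. The deposited processed intensity values had been background-subtracted and dye-normalized by that software, and the deposited log10 ratio (red over green) came from them, per the file headers. The authors' deposited series table holds the same log10 ratios, rounded. No genome build for the probes is given in the sources used here.

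Mean intensity was corrected with local median background by normexp (offset 50) and normalized by loess within arrays (limma 3.58.1, R 4.3.3), and the sign was turned so that log2 ratios are ETO2 siRNA over control. Of 45018 features, 1639 controls had weight 0 in loess, and 10 and 4 outlier spots were left out. Spots of a probe were averaged. Of 41174 probes, 24434 (59.3%) were well above background in the same channel on both arrays and were kept. A gene, by the array file's name, was represented by its brightest kept probe, which gave 16640 genes. Cbfa2t3 is named Cbfa2t3h in the array file.

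Ratios were tested against 0 with lmFit and eBayes, two-sided, Benjamini-Hochberg adjusted over all genes, threshold 0.05. There was 1 residual degree of freedom per gene, with 13.9 added by eBayes (prior SD 0.0907). A sign permutation of 2 arrays cannot go below p = 0.5, so every adjusted p leans on the variance that eBayes shares among genes. The median SD between arrays was 0.06, and only 2 arrays limit the precision. Arrays shared 1 slide and 1 scan day, which leaves no batches to set apart, and without a dye swap a probe's own dye effect cannot be told apart from the siRNA. Symbols and coordinates come from RefSeq GRCm38.p6 by accession.

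The genes studied and the neighbouring lists were chosen with earlier results of these data known. The text names every gene studied, Cbfa2t3, and from each neighbouring list up to 4 genes past the threshold with the largest changes, and 1 gene that this rule names is not reported here. Alternatives were other background, normalization, probe and saturation rules, the deposited ratios, and each array alone.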

Additional observations from a re-analysis of the deposited data

How the results depend on the processing

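Leaving out either array kept the sign of the Cbfa2t3 ratio, which ranged from -0.46 to -0.39, and it kept its call under each alternative that allows a test. Loess with saturated spots at weight 0, chosen after seeing the data, gave 14 genes higher and 9 lower of the 37, the same counts as plain loess. On the processed signals, the deposited ratios and the series table alike, 10 were higher and 4 lower. The 10 include the saturated genes Aldoa, Gapdh, Gpi1 and Ldha, which are given no fold. With saturated probes left out, 7 were higher and 8 lower of 30. With median centring, 2 were higher and 24 lower. Neighbouring genes called higher (17) were 10 on the processed signals and deposited ratios, 7 in the series table and 0 with median centring (limma; also 0 at an unadjusted p under 0.05), where 76 were lower. Those called lower (25) were 8 on the processed signals, the deposited ratios and the series table, and 16 with offset 0. Over all genes, 3062 higher and 3712 lower became 1217 and 1312 on the processed signals, 1216 and 1312 by the deposited ratios, 1151 and 1230 in the series table, and 466 and 10830 with median centring. With no adjustment, 8059 genes had p under 0.05.

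Median centring moved the median of all genes to -0.31 and turned these ratios below 0: Ankrd37 -0.14, Eno1 -0.24, Eno3 -0.32, Gapdh -0.43, Gpi1 -0.020, Hif1a -0.28, Pdha1 -0.46, Pdhb -0.32, Pdk3 -0.37, Pfkfb1 -0.056, Pfkfb2 -0.24, Pfkfb4 -0.24, Pfkl -0.0023, Pfkp -0.46, Pgk1 -0.064, Tpi1 -0.11, Pgls -0.20, Got2 -0.11, Mdh2 -0.32, Gys1 -0.025, Higd1a -0.36, Stk11 -0.062 and Akt2 -0.13. Relative to that median (chosen after seeing the data), Pfkl was 0.31, Ankrd37 0.17 and Eno1 0.071. With saturated probes left out, Gpi1 turned to -0.075 and Tkt to -0.18. The mean over kept probes turned Hk1 to 0.031, Pfkfb2 to -0.0023 and Hif1an to 0.029, and Hif1an was 0.020 on the processed signals, the deposited ratios and the series table, against -0.24 by its brightest probe. Relative to the shifted median of all genes, 15 of the 23 ratios that turned with median centring stayed above 0. Those of Eno3, Gapdh, Pdha1, Pdhb, Pdk3, Pfkp, Mdh2 and Higd1a did not. Gpi1 and Tkt were read from other probes once saturated ones were left out. The cause of the reversals was not tested. Both groups lie on each array, so every ratio is already paired within its array, and no further pairing was applied. Spots near background limit Hkdc1, Hk3, Pfkfb3, Aldoc and Ldhb, and saturation limits 8 of the 37 genes.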
